A study of Homo sapiens with 6 samples.

Results

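Long noncoding transcripts were examined in PANC-1, a human pancreatic ductal carcinoma cell line, with and without an shRNA against STYK1. The 52 transcripts are the rows of the expression table whose symbol ends in -AS1 or a like antisense suffix (antisense, 28), ends in -DT (divergent, 4), starts with LINC (long intergenic noncoding RNA, 16) or names a microRNA host gene (4), out of 995 genes in all. No intronic (-IT1), overlapping (-OT1) or small nucleolar RNA host (SNHG) symbol was in the table. The choice rested on symbols alone, and 72 genes of the table carry no symbol and could not enter it. GENCODE 29 (GRCh38) holds 50 of the 52, of which 24 are typed as antisense, 17 as lincRNA, 8 as processed transcript and 1 as protein-coding, the exception being KCNJ5-AS1, which this release names C11orf45. LINC00869 and ACAD9-DT have no entry in it.

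RNA-Seq of poly(A)-selected RNA gave 3 libraries of control cells and 3 of shSTYK1 cells. The shSTYK1 cells carry a stably expressed lentiviral shRNA against STYK1, a kinase-like membrane protein that the study places in Wnt/β-catenin signaling, and the labels name the other cells only as control. The methods describe the libraries of each group as biological replicates. They also describe the stable lines as isolated clones of resistant cells, so the knockdown and differences between lines cannot be told apart. Which of the shRNAs made for the study the sequenced cells carried is not stated. STYK1 itself is not among the 995 genes, so its level in these libraries could not be checked. The study reports the efficiency of STYK1 depletion in PANC-1 cells with stable shRNAs separately. The study called as many genes changed, by a p-value threshold, as the table holds, so the table was read as the z-scores of these selected genes. By this reading STYK1 was not among the genes called. No control library overlapped a shSTYK1 library in 93.7% of all 995 genes. A call for a single noncoding transcript is therefore close to given by its presence in the table, and the direction, the size and the partners of each change carry the description. The z-scores were turned back into expression values with 2 decimals, whose unit and depth are unknown, so values are compared between libraries and not between genes. Of 21 cell type markers listed, 3 were in the table: the epithelial CDH1, at 0.10, 0.27 and 0.28 in control cells and 0.94, 0.85 and 0.90 in shSTYK1 cells, the mesenchymal CDH2 (log2 change -2.67) and the fibroblast marker COL1A1 (log2 change -2.83). No leukocyte or endothelial marker was among the 995 genes, and the identity of the cells could not be checked further. These markers moved with the groups, and their part in the noncoding results was not tested.

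Long noncoding RNAs are transcribed and often spliced and polyadenylated like mRNAs but are not known to encode a protein. An antisense transcript runs on the opposite strand of a coding gene and may overlap its exons, its promoter or its introns. A divergent transcript starts close to a coding gene's start and runs the other way, since many promoters fire in both directions. A microRNA host transcript carries a microRNA hairpin in an intron or exon, which is cut out in the nucleus.

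A selection of the mature microRNAs lying within the 4 host transcripts is shown first, because these are the best known products of these loci. They were not measured here, as poly(A)-selected libraries report the host RNA. The sequences are from RefSeq (GRCh38.p14), 5′ to 3′, with the seed (bases 2 to 8), which pairs with target mRNAs, in capitals.
let-7a-5p: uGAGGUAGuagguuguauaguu
miR-4500: uGAGGUAGuaguuucuu
miR-100-5p: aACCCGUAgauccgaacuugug
miR-125b-5p: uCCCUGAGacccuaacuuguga
miR-3142: aAGGCCUUucugaaccuucaga
miR-146a-5p: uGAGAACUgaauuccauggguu
miR-34a-5p: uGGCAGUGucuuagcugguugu
The let-7a-5p of MIR100HG (chr11:122146568-122146589, minus strand) and the miR-4500 of MIR4500HG (chr13:87618671-87618687, minus strand) share the seed GAGGUAG, although their hosts lie on different chromosomes. MIR100HG also spans miR-100-5p and miR-125b-5p, with other seeds. MIR3142HG spans miR-3142 and miR-146a-5p on the plus strand of chromosome 5, and MIR34AHG spans miR-34a-5p on the minus strand of chromosome 1. All 13 mature microRNAs of RefSeq within these hosts lie on the strand of their host.

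The promoter windows of B3GALT5, FLRT2 and COPB2-DT follow because each holds the starts of a noncoding transcript and a coding gene on opposite strands. Each window has 300 bases, the last 50 of which begin at the annotated start of the gene named, from RefSeq (GRCh38.p14), on the plus strand. Capitals mark matches, on either strand, to the GC box GGGCGG, to CCAAT and to TATAAA.
B3GALT5, chr21:39612690-39612989: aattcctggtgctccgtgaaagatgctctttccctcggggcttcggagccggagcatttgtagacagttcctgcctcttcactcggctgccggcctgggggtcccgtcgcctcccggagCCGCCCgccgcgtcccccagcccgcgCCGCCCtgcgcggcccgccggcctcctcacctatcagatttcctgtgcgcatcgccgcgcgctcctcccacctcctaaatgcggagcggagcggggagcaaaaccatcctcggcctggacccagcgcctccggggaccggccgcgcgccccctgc
FLRT2, chr14:85529894-85530193: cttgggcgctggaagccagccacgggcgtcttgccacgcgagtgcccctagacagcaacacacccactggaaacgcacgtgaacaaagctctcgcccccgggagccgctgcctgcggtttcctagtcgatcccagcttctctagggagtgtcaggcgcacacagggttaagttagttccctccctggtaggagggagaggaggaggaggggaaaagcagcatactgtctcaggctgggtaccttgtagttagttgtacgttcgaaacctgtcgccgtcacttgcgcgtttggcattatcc
COPB2-DT, chr3:139389553-139389852: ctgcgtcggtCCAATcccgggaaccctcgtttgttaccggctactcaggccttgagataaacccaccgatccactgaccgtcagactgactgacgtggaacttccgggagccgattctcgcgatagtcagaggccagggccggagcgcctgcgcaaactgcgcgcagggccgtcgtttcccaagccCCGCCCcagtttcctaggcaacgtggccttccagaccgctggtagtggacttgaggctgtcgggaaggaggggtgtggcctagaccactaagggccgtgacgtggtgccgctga
In the B3GALT5 window, B3GALT5-AS1 starts on the other strand at position 133, 118 bases from the RefSeq start of the coding gene. GENCODE 29 begins B3GALT5 farther upstream, 56379 bases from the start of B3GALT5-AS1, and so places the antisense transcript within the gene. The window holds 2 GC box matches and 35 CpG dinucleotides. FLRT2-AS1 starts at position 95 of the FLRT2 window by GENCODE 29, 156 bases from FLRT2, and that window holds 19 CpG and none of the motifs. In the COPB2-DT window the start of COPB2 lies at position 128, 123 bases away, with 26 CpG, 1 GC box match and 1 CCAAT match. Among 35116 RefSeq promoter windows of this length, 45% hold GGGCGG, 34.6% hold CCAAT and 11.5% hold TATAAA on either strand, and the median number of CpG is 14. The motif matches describe letters only.

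By the mean z-score 33 of the 52 noncoding transcripts were higher in shSTYK1 cells and 19 were lower. The share that was higher was 63.5%, beside 49.1% of the other 943 genes and 47.7% of the 845 other protein-coding genes. Antisense transcripts were higher in 18 and lower in 10 cases, divergent transcripts in 3 and 1, LINC transcripts in 8 and 8, and all 4 microRNA hosts were higher. The direction of each of the 52 was the same with a pseudocount of 0.1, after median-of-ratios rescaling and after quantile normalization. The difference of these shares was not tested, since the genes of the table were selected and neighbouring genes are not independent.

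**Figure D1:**
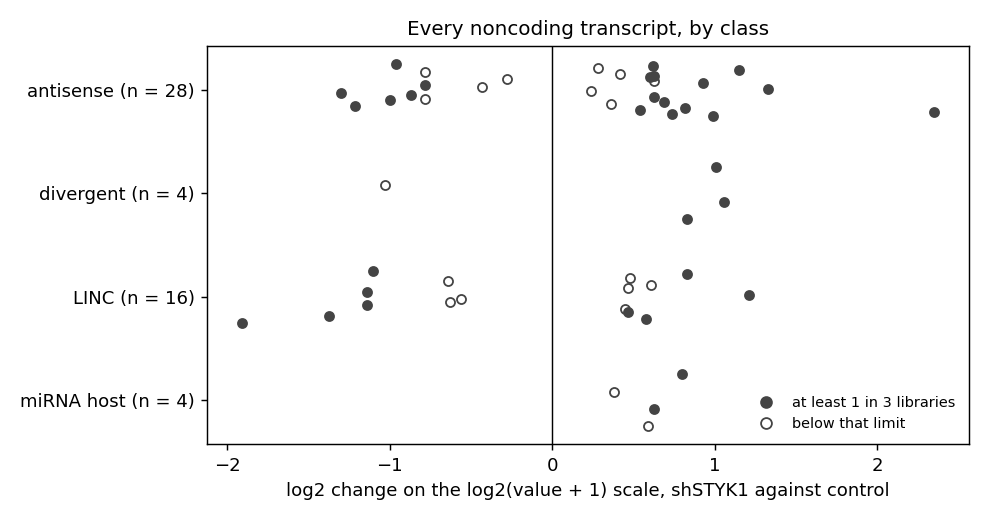
Each point is 1 of the 52 noncoding transcripts, placed by its change on the log2(value + 1) scale (horizontal axis, shSTYK1 against control) and grouped by class (rows). Filled points reached a value of 1 in 3 or more libraries, open points did not. All 4 microRNA hosts lie to the right of 0, and LINC transcripts are split evenly.

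Of the 52, 33 reached a recovered value of 1 in 3 or more libraries and were tested with limma together with all 740 genes past this filter. With an adjusted p-value under 0.05, 11 were lower and 21 were higher, beside 44.5% of all genes tested called lower and 51.2% called higher (95.7% in either direction). LINC01237, at 3.41, 1.51 and 3.75 in control cells and 4.45, 3.98 and 4.20 in shSTYK1 cells, did not pass (limma adjusted p = 0.0835). By class, 6 antisense transcripts were lower and 13 higher, 3 divergent transcripts were higher, 5 LINC transcripts were lower and 3 higher, and 2 microRNA hosts were higher. The median log2 change of the 33 was 0.63, beside 0.54 for all genes tested. With no filter it was 0.47 for the 52, beside -0.10 for all genes. Of the 32 called, 29 differed at least 2-fold between the group means. The filter let 3 of the 33 through by their control libraries alone (LINC02432, LINC00869 and BVES-AS1) and 3 by their shSTYK1 libraries alone (LINC02035, LINC03068 and LOXL1-AS1). These 6 had to differ to be tested, and their calls were also made with no filter. The other 19, of which 8 were lower and 11 higher by direction, had recovered values from 0 to 2.53. With no filter 18 of the 52 were called lower and 30 higher, beside 46.3% and 45.8% of 994 genes (92.1% in either direction). The groups stood apart in 50 of the 52 (96.2%), beside 93.7% of all genes (48.1% lower and 45.5% higher), with NEPRO-AS1 and LINC02609 as the exceptions.

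Among the antisense transcripts, TUBA1B-AS1 (ENSG00000258017, chr12:49127782-49147869, plus strand), opposite the α-tubulin gene TUBA1B, fell. It was at 121.86, 164.53 and 74.81 in the control libraries and at 43.90, 48.17 and 45.69 in the shSTYK1 libraries, a log2 change of -1.30 (SE 0.26, limma adjusted p = 0.00163). The shSTYK1 libraries lay close together, and the control libraries lay above them with a wide spread. Of its exon bases, 1309 (80.2%) lie opposite TUBA1B exons. The library protocol in the labels makes double-stranded cDNA with random primers and does not mention a strand mark, and strand-specific counting is not stated, so reads of a gene and of a transcript opposite its exons cannot be told apart. TUBA1B is not among the 995 genes. In bulk RNA, fewer cells with a transcript and less of it per cell cannot be told apart.

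BVES-AS1 (ENSG00000203808, chr6:105136308-105169945, plus strand) is antisense to BVES, which encodes a membrane protein of muscle and epithelia. Its values were 3.47, 2.88 and 2.23 in control cells and 0.57, 0.70 and 0.69 in shSTYK1 cells, a log2 change of -1.21 (SE 0.15, limma adjusted p = 0.000168 with the filter, which it passed by its control libraries alone, and 0.000233 without). DGUOK-AS1 (ENSG00000237883, chr2:73947642-73981441, minus strand), opposite the mitochondrial deoxyguanosine kinase gene, fell from 4.08, 6.49 and 5.57 to 3.26, 1.98 and 1.47, a log2 change of -1.0 (SE 0.23, limma adjusted p = 0.0033). The highest shSTYK1 library of DGUOK-AS1 came near its lowest control library, whereas BVES-AS1 was well apart. The other antisense transcripts called lower were ZNF436-AS1, STEAP1B-AS1 and CYP1B1-AS1, with log2 changes from -0.96 to -0.78.

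SLC9A3-AS1 (ENSG00000225138, chr5:473236-480884, plus strand) had the largest rise of the 52 on the log2(value + 1) scale. It lies opposite SLC9A3, which encodes a sodium-proton exchanger of epithelia, with 830 of its exon bases (19.3%) opposite SLC9A3 exons. It was at 1.89, 4.58 and 1.19 in control cells and 18.03, 15.29 and 14.18 in shSTYK1 cells, a log2 change of 2.35 (SE 0.31, limma adjusted p = 0.000229). Every shSTYK1 library was over 3 times the highest control library.

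MELTF-AS1 (ENSG00000228109, chr3:196999460-197004744, plus strand), opposite the gene of the iron-binding melanotransferrin, rose from 2.05, 3.77 and 2.50 to 12.65, 5.52 and 8.09, a log2 change of 1.33 (SE 0.28, limma adjusted p = 0.00216). GATA2-AS1 (ENSG00000244300, chr3:128489212-128502348, plus strand), beside the gene of the blood and endothelial transcription factor GATA2, rose from 10.71, 18.24 and 11.12 to 28.12, 33.67 and 28.38, a log2 change of 1.15 (SE 0.21, limma adjusted p = 0.000956). KCNJ5-AS1 (ENSG00000174370, chr11:128899565-128906035, minus strand), within the locus of a potassium channel gene, rose from 1.55, 1.49 and 1.21 to 3.20, 3.58 and 4.07, a log2 change of 0.93 (SE 0.13, limma adjusted p = 0.000288). The spread among shSTYK1 libraries was widest in MELTF-AS1, and in all 3 transcripts the groups stood apart. In GENCODE 29, 296 exon bases of MELTF-AS1 (26%) lie opposite MELTF exons, and its reads cannot be told apart from those of MELTF, while no exon of GATA2-AS1 or KCNJ5-AS1 lies opposite an exon of its partner. GATA2-AS1 was at 0.76 after median-of-ratios rescaling (limma adjusted p = 0.00278). BCAN-AS1, MSANTD2-AS1, PPP1R26-AS1, SRRM2-AS1, CD27-AS1 and TAPT1-AS1 were also called higher. After median-of-ratios rescaling SRRM2-AS1 was at 0.35, CD27-AS1 at 0.27 and TAPT1-AS1 at 0.33 on the log2 scale, no longer past the threshold (limma adjusted p = 0.0668, 0.193 and 0.114). The calls of CD27-AS1 and TAPT1-AS1 also needed single libraries: without shSTYK1 library 3 they were at 0.44 and 0.36, and TAPT1-AS1 was at 0.43 without control library 1 and at 0.51 without control library 3, all short of the threshold.

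The coding partner of an antisense or divergent transcript was among the 995 genes in 8 of 32 cases, all of them antisense. In each of the 8 pairs the means of both transcripts differed in the same direction, lower in 5 pairs and higher in 3. The groups overlapped in none of them, beside 93.7% of all 995 genes without overlap. Pairs could be compared only where both genes were in this table of selected genes, so the count does not extend to the other 24. In 7 of the 8 pairs the antisense transcript differed less than its partner on the log2(value + 1) scale, which understates changes at low values, and this order was not tested. Both were past the filter on low values in 4 pairs. The exons of the pair overlap on opposite strands in 5, in which shared reads cannot be told apart from separate changes, and do not overlap in 3. The partners not in the table were SLC9A3, GATA2, KCNJ5, TUBA1B, MSANTD2, BCAN, MELTF, ZNF436, STEAP1B, CPEB1, SRRM2, GAS6, PPP1R26, TROAP, CD27, BVES, PTOV1, NEPRO, DGUOK and TAPT1 for antisense transcripts and COPB2, GSK3B, ACAD9 and MRPS30 for divergent ones.

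The pairs without exon overlap were all lower. FLRT2-AS1 (ENSG00000205562, chr14:85524432-85529988, minus strand) was at 1.17, 0.89 and 1.07 in control cells and 0.32, 0.06 and 0.19 in shSTYK1 cells. FLRT2 (ENSG00000185070), which encodes an adhesion and guidance protein and starts 156 bases away head to head, as the promoter window above shows, fell from 12.51, 14.55 and 12.51 to 2.31, 1.83 and 1.72, a log2 change of -2.27 (limma adjusted p = 7.75e-06). SH3RF3-AS1 (ENSG00000259863, chr2:109127327-109128930, minus strand) was at 1.34, 1.85 and 0.89 in control cells and 0.36, 0.32 and 0.40 in shSTYK1 cells. SH3RF3 (ENSG00000172985), the gene of a ubiquitin ligase, starts 418 bases away and fell from 2.77, 3.50 and 2.49 to 0.67, 0.91 and 0.64, a log2 change of -1.17 (limma adjusted p = 0.000168 with the filter, which SH3RF3 passed by its control libraries alone, and 0.000219 without). B3GALT5-AS1 (ENSG00000184809, chr21:39597147-39612821, minus strand) was at 0.31, 0.36 and 0.41 in control and listed at 0.02, 0 and 0 in shSTYK1 cells. B3GALT5 (ENSG00000183778), a galactosyltransferase gene, was at 0.17, 0.14 and 0.27 in control and listed at 0 in each shSTYK1 library. The antisense transcripts FLRT2-AS1, SH3RF3-AS1 and B3GALT5-AS1 were below the filter, as was B3GALT5, and are described by their values only. In each of them every shSTYK1 library was below every control library.

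CYP1B1-AS1 (ENSG00000232973, chr2:38073447-38231651, plus strand) starts within CYP1B1, a monooxygenase gene of steroid and xenobiotic metabolism, 36455 bases from the start of that gene. It runs on the other strand across that start, with 678 of its exon bases (9.1%) opposite CYP1B1 exons. It fell from 5.93, 5.82 and 7.30 to 3.57, 3.10 and 2.42, a log2 change of -0.87 (SE 0.15, limma adjusted p = 0.000878). CYP1B1 (ENSG00000138061) fell from 99.18, 97.85 and 122.58 to 2.74, 1.98 and 2.83, a log2 change of -4.94. By the group means the antisense transcript fell 2.1-fold and the coding gene 42.3-fold. TRHDE-AS1 (ENSG00000236333), within the gene of a peptidase that degrades thyrotropin-releasing hormone and with 793 exon bases opposite it (9.03%), was at 0.51, 0.12 and 0.06 in control, while TRHDE (ENSG00000072657) was at 0.24, 0.35 and 0.18. Both were listed at 0 in all shSTYK1 libraries and were below the filter. With no filter TRHDE-AS1 did not pass the threshold (limma adjusted p = 0.105), while TRHDE did (limma adjusted p = 0.0148).

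The pairs that were higher all share exon bases on opposite strands. ALDH1A3-AS1 (ENSG00000259583, chr15:100892859-100919283, minus strand) overlaps the 3′ part of ALDH1A3, a retinaldehyde dehydrogenase gene of retinoic acid synthesis, over 1585 exon bases (23.3%). It rose from 5.78, 8.30 and 6.59 to 15.04, 14.35 and 14.27, a log2 change of 0.99 (SE 0.15, limma adjusted p = 0.000362). ALDH1A3 (ENSG00000184254) rose from 115.64, 137.90 and 122.04 to 300.62, 276.34 and 294.05, a log2 change of 1.21 (limma adjusted p = 7.54e-05). The rises by group means were alike in size, 2.11-fold and 2.32-fold. With quantile normalization ALDH1A3 was at 0.30 (limma adjusted p = 0.055), while its antisense transcript kept its call. After median-of-ratios rescaling ALDH1A3-AS1 was at 0.62 (limma adjusted p = 0.00166).

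LOXL1-AS1 (ENSG00000261801, chr15:73908071-73928248, minus strand) overlaps the first part of LOXL1, the gene of an elastin cross-linking oxidase, over 335 exon bases (7.94%). It rose from 0.69, 0.80 and 0.88 to 2.13, 1.37 and 1.87, a log2 change of 0.63 (SE 0.14, limma adjusted p = 0.00288 with the filter and 0.00294 without). LOXL1 (ENSG00000129038) rose from 0.90, 0.62 and 0.67 to 3.47, 8.96 and 4.38, a log2 change of 1.85 (limma adjusted p = 0.000394 with the filter and 0.000804 without). Both passed the filter by their shSTYK1 libraries alone, and LOXL1-AS1 was at 0.40 after median-of-ratios rescaling (limma adjusted p = 0.0241). C1RL-AS1 (ENSG00000205885, chr12:7108052-7122501, plus strand), head to head with the complement protease-like gene C1RL over 205 exon bases (3.36%), rose from 1.04, 1.34 and 1.24 to 3.75, 1.59 and 2.21, a log2 change of 0.63 (SE 0.22, limma adjusted p = 0.0223). C1RL (ENSG00000139178) rose from 3.10, 4.34 and 3.22 to 13.14, 10.10 and 9.85, a log2 change of 1.40. The call of C1RL-AS1 rests on few libraries: without shSTYK1 library 1 its log2 change was 0.39 (limma adjusted p = 0.0584), without control library 1 0.57 (limma adjusted p = 0.068), and after median-of-ratios rescaling 0.37 (limma adjusted p = 0.106).

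**Figure D2:**
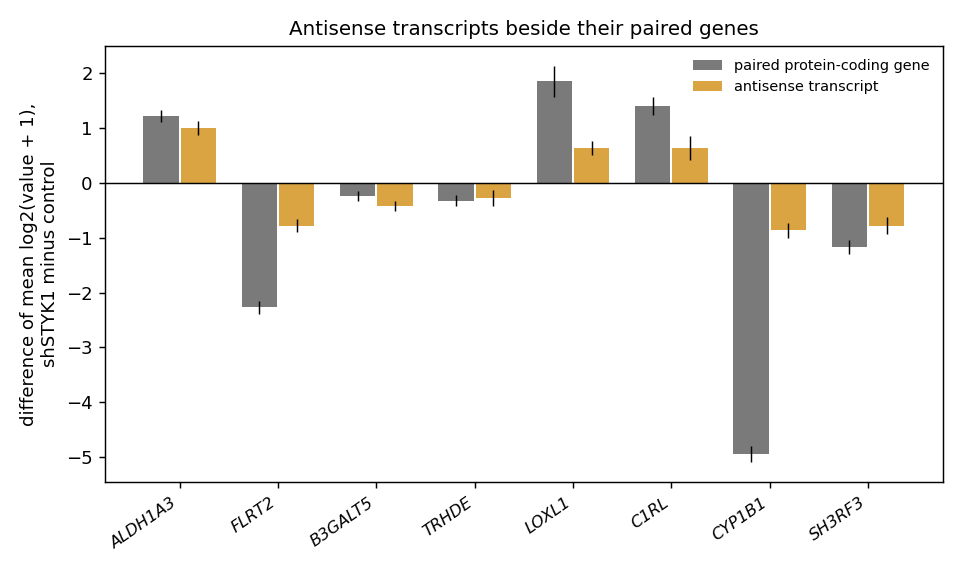
Difference of the mean log2(value + 1) between shSTYK1 and control libraries (vertical axis) for the 8 coding genes in the table (grey) and their antisense transcripts (yellow), with standard errors from limma without the filter on low values. Both bars of each pair point the same way, and the yellow bar is the shorter one in every pair other than B3GALT5.

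TROAP-AS1 and CPEB1-AS1 overlap a gene of the table other than the one they are named for, and were chosen after their values were seen. TROAP-AS1 has 2445 exon bases (58.7%) opposite PRPH, the gene of a neuronal intermediate filament, and was at 0, 0.02 and 0.02 in control cells and 0.09, 0.27 and 0.24 in shSTYK1 cells. TROAP-AS1 was below the filter and did not pass the threshold without it (limma adjusted p = 0.0546). PRPH rose from 0.50, 0.95 and 0.79 to 4.06, 4.01 and 2.32, a log2 change of 1.34 (limma adjusted p = 0.000365 with the filter, which PRPH passed by its shSTYK1 libraries alone, and 0.000639 without). CPEB1-AS1, at 0.29, 0.32 and 0.27 in control cells and 0.90, 1.09 and 1.00 in shSTYK1 cells, shares no exon base with AP3B2, a vesicle coat gene that was at 0.02, 0.07 and 0.07 in control cells and 0.62, 0.41 and 0.33 in shSTYK1 cells. In both cases the noncoding and the coding gene were higher in every shSTYK1 library, at low values.

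Divergent transcripts were higher in 3 of 4 cases. COPB2-DT (ENSG00000248932, chr3:139389815-139583319, plus strand), which starts beside COPB2, a gene of the coat of Golgi transport vesicles, rose from 2.83, 3.18 and 2.83 to 6.18, 6.34 and 9.53, a log2 change of 1.06 (SE 0.17, limma adjusted p = 0.000574). ACAD9-DT (ENSG00000287110), named for a gene of mitochondrial complex I assembly, rose from 0.58, 1.31 and 1.08 to 3.63, 2.64 and 2.66, a log2 change of 1.01 (SE 0.18, limma adjusted p = 0.000918). GSK3B-DT (ENSG00000242622, chr3:120094895-120136783, plus strand), named for the kinase that marks β-catenin for degradation, rose from 0.92, 1.19 and 0.86 to 2.38, 1.78 and 3.64, a log2 change of 0.83 (SE 0.20, limma adjusted p = 0.00378). In each, all shSTYK1 libraries were above all control libraries. COPB2-DT and GSK3B-DT lie on the long arm of chromosome 3, where 90.6% of the other table genes were higher as well. ACAD9-DT has no entry in the annotation used and was not placed. Whether the direction of the divergent transcripts differs from that of their chromosome arm was not tested. MRPS30-DT (ENSG00000251141), named for a mitochondrial ribosome gene, was the one with lower values, at 0.67, 1.04 and 2.53 in control cells and 0, 0.22 and 0.16 in shSTYK1 cells, and was below the filter. The coding partners of these 4 transcripts are not among the 995 genes, so both sides of these promoters cannot be compared.

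On the log2(value + 1) scale, a LINC transcript had the largest fall of the 52. LINC02432 (ENSG00000248810, chr4:141319450-141332618, minus strand) was at 3.12, 2.98 and 4.71 in control cells and 0.25, 0.12 and 0.27 in shSTYK1 cells, a log2 change of -1.91 (SE 0.17, limma adjusted p = 4.07e-05 with the filter and 6.95e-05 without). The group means differed 16.9-fold. B3GALT5-AS1, with shSTYK1 values at or near 0, differed by a larger ratio at lower values. TRHDE-AS1, listed at 0 in all shSTYK1 libraries, has no ratio. LINC00869 (ENSG00000291158) fell from 2.55, 2.66 and 2.65 to 0.57, 0.26 and 0.38, a log2 change of -1.37 (SE 0.13, limma adjusted p = 5.07e-05 with the filter and 6.71e-05 without). LINC02432 and LINC00869 passed the filter by their control libraries alone. The control libraries of LINC00869 lay within a narrow range. RefSeq gives FAM91A2 as a synonym of LINC00869, a name shared with a family of related copies, so that its reads may be split among them and its value is uncertain.

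LINC01224 (ENSG00000269416, chr19:23399233-23416075, minus strand) fell from 4.04, 4.84 and 4.09 to 1.51, 2.01 and 0.87, a log2 change of -1.14 (SE 0.19, limma adjusted p = 0.00062). LINC00641 (ENSG00000258441, chr14:21200079-21206900, minus strand) fell from 5.91, 5.67 and 7.64 to 2.83, 2.03 and 2.45, a log2 change of -1.10 (SE 0.15, limma adjusted p = 0.00028). LINC00173 (ENSG00000196668, chr12:116533422-116536518, plus strand) was at 3.35, 1.70 and 1.63 in control cells and 0.05, 0.09 and 1.54 in shSTYK1 cells, a log2 change of -1.14 (SE 0.36, limma adjusted p = 0.0152). 1 shSTYK1 library lay just below the control libraries, unlike the other two. Without control library 1 the log2 change of LINC00173 was -0.90 (limma adjusted p = 0.0569), and without shSTYK1 library 2 it was -0.94 (limma adjusted p = 0.0611).

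LINC01238 (ENSG00000237940, chr2:241970683-241977276, plus strand) had the largest rise of the LINC transcripts on the log2(value + 1) scale, from 0.88, 1.69 and 2.66 to 4.63, 5.94 and 4.89, a log2 change of 1.21 (SE 0.24, limma adjusted p = 0.00142). It lies within the span of LINC01237 on the same strand, without shared exon bases. LINC03068 and LINC02035 were the other LINC transcripts called higher, with log2 changes of 0.83 and 0.58. Below the filter, LINC00460, LINC00664 and LINC02475 had lower values in every shSTYK1 than in every control library, and LINC00920, LINC01977 and LINC01152 had higher ones. LINC00920 was listed at 0, 0 and 0.10 in control cells and 0.73, 0.49 and 0.52 in shSTYK1 cells, a larger ratio than that of LINC01238 at lower values.

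The 4 microRNA hosts were all higher in shSTYK1 cells. MIR100HG (ENSG00000255248, chr11:122028327-122556721, minus strand) was at 7.20, 5.97 and 7.28 in control cells and 14.77, 9.65 and 13.81 in shSTYK1 cells, a log2 change of 0.80 (SE 0.18, limma adjusted p = 0.00267). After median-of-ratios rescaling it was at 0.43 (limma adjusted p = 0.0603). MIR3142HG (ENSG00000253522, chr5:160438594-160487426, plus strand), which spans miR-146a, a microRNA of inflammatory signaling, rose from 1.17, 1.10 and 1.08 to 2.17, 2.08 and 2.57, a log2 change of 0.63 (SE 0.12, limma adjusted p = 0.00125). With the same rescaling it was at 0.37 (limma adjusted p = 0.0231). MIR4500HG (ENSG00000228824, chr13:87427214-87671259, minus strand) was at 0.65, 0.37 and 0.39 in control cells and 1.48, 0.92 and 1.25 in shSTYK1 cells. MIR34AHG (ENSG00000228526, chr1:9148011-9198906, minus strand), host of the p53-responsive miR-34a, was at 0.26, 0.52 and 0.31 in control cells and 0.72, 0.70 and 0.90 in shSTYK1 cells. MIR4500HG and MIR34AHG were below the filter, and in all 4 hosts the lowest shSTYK1 library was above the highest control library. Since all 4 hosts were higher, the seed GAGGUAG shared by microRNAs of MIR100HG and MIR4500HG adds nothing to this direction. The microRNAs themselves were not measured.

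**Figure D3:**
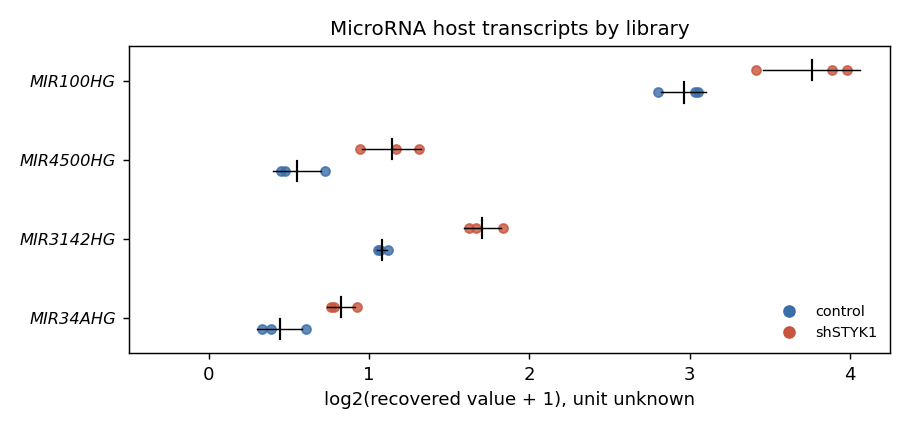
Recovered values on the log2(value + 1) scale (horizontal axis, unit unknown) of the 4 microRNA hosts. Points are libraries (blue control, red shSTYK1), vertical ticks the means and horizontal lines 1 SD on either side. In each host the red points lie to the right of the blue points.

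By position, 6 of the 50 transcripts with a GENCODE entry lie on the long arm of chromosome 3, and all 6 were higher in shSTYK1 cells by their means: GATA2-AS1, MELTF-AS1, COPB2-DT, GSK3B-DT, LINC02035 and NEPRO-AS1. Of the 64 other table genes on this arm, 58 (90.6%) were higher as well. On chromosome 1 up to HOOK1, where 36 of 38 other table genes were lower, ZNF436-AS1 (ENSG00000249087) fell from 4.54, 3.45 and 3.49 to 1.23, 2.04 and 1.21, a log2 change of -0.96 (SE 0.17, limma adjusted p = 0.000892). MIR34AHG, in the same region, had higher values. A change of a whole chromosome segment and a change of single transcripts cannot be told apart here, and DNA copy number was not measured.

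The sum of the recovered values over all genes was between 9481 and 10545 in the control and between 14288 and 14790 in the shSTYK1 libraries, and median-of-ratios rescaling lowered the median log2 change of all genes tested from 0.54 to 0.30. The mean log2 change of the genes tested was -0.07 before it. With no filter the median of all genes was -0.10, and -0.16 after this rescaling. A shift common to all genes was not tested. Median-of-ratios rescaling turned the direction of none of the 52. The log2 change of 0.47 of LINC01237, which did not pass the threshold, was smaller than the median of 0.54 of all genes tested. With that rescaling 16 in place of 21 noncoding transcripts were called higher, and 11 were again called lower, beside 44.1% of all genes tested called higher and 45% called lower.

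Genes of RNA turnover and further long noncoding genes give the setting of these transcripts. Of 47 genes of nuclear RNA decay and 3′ end formation and of 18 genes of nonsense-mediated decay, the pathways that remove many noncoding transcripts, none is among the 995 genes. Of 93 long noncoding genes listed by names outside the symbol rule, 6 are in the table, and 4 were called lower and 2 higher, beside 95.7% of all genes tested called in either direction. H19 (ENSG00000130600), an imprinted growth-related transcript, fell from 53.91, 61.49 and 48.42 to 6.33, 7.56 and 4.55, a log2 change of -2.98 (SE 0.18, limma adjusted p = 9.84e-06). MEG3 and MEG8, neighbours at another imprinted locus, had a log2 change of -1.21 each, and MEG3 went from 67.61, 74.85 and 67.85 to 28.08, 30.67 and 30.51. HCG11 (ENSG00000228223) fell from 2.32, 1.89 and 2.74 to 0.22, 0.15 and 0.11, a log2 change of -1.51 (limma adjusted p = 4.89e-05 with the filter, which HCG11 passed by its control libraries alone, and 6.71e-05 without). HULC and DUBR rose, with log2 changes of 0.73 and 0.71. In H19, MEG3 and HCG11 every shSTYK1 library was at less than 50% of every control library. Interferon-induced genes, which answer double-stranded RNA among other signals, had 7 of 30 listed members in the table, all called higher beside 51.2% of all genes tested. How many of the 7 lie on the long arm of chromosome 3, where 90.6% of other table genes were higher, was not counted. A link with the antisense transcripts was not tested.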

How the data were processed

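From 3 control and 3 shSTYK1 libraries of poly(A)-selected RNA the authors deposited z-scores, a score per gene and library with a mean of 0 over the 6 libraries. The labels' processing notes name RSEM, DESeq2 and GRCh38/hg38 without versions or roles, and the methods name general two-group tests but none for the RNA-Seq data in particular. The design assumed counts or normalized values, and the test for normalized values was used. Values with 2 decimals were recovered in Python 3.11.15 (numpy 2.4.6, numba 0.67.0, pandas 2.3.3) by a whole-number search, up to a whole-number factor of value + 1, for 994 of 995 genes and all 52 transcripts, with z-scores off by at most 5e-12. The search was tested on simulated data, as was the model. With the depth unknown, intervals and detection limits were not given. The groups were compared with limma 3.58.1 in R 4.3.3 (lmFit, eBayes) on log2(value + 1), which understates changes of low genes, in 740 genes that reached 1 in 3 or more libraries, and p-values were adjusted over all of them (Benjamini-Hochberg). Calls had an adjusted p-value under 0.05. Values are given for the 8 strongest falls and the 8 strongest rises on the log2 scale among calls without overlap, for pairs in the table, for microRNA hosts and for the highest mean in each class, and others were named after their values were seen. Members and lists were chosen with earlier results of these data known. Positions and exons come from GENCODE 29, sequences from RefSeq. Plots were drawn with matplotlib 3.10.9.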

Additional observations from a re-analysis of the deposited data

How the results depend on the processing

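The 11 lower and 21 higher calls of noncoding transcripts became 18 lower and 30 higher with no filter, beside 46.3% and 45.8% of 994 genes, and 3 lower and 6 higher with a filter of at least 5 in 3 libraries, which left 9 of them among 327 genes to test (39.8% and 59.3% of these called). On the deposited z-scores of all 52 they were 18 and 32, beside 48.6% and 46.7% of all 995 genes, and with an absolute log2 fold change of at least 1 they were 7 and 6, beside 31.8% and 23.6% of 740 genes. With each library left out in turn there were 10 to 11 lower and 19 to 21 higher calls, beside 43.8% to 44.3% and 49.3% to 51.1% of 740 genes. The pairs in the same direction numbered 8 of 8 with each library left out (8 to 8), and 4 of 4 when both genes had to pass the filter. The replicate number as a block gave 11 lower and 22 higher calls, beside 44.5% and 52% of 740 genes. Same-numbered libraries correlated in their deviations from the group means at -0.225, 0.191 and 0.048, and not every library correlated best with its own number. These values showed no regular pairing by number but, with 3 libraries per group, cannot exclude it. For the 27 named genes that were tested, 357 of 364 values under the alternatives kept their direction and their side of the threshold, 7 kept the direction and were no longer past the threshold, and none reversed. These 27 are the genes of the naming rule, and 7 further calls were lost in SRRM2-AS1, CD27-AS1 and TAPT1-AS1, outside it. A pseudocount of 0.1 raised the size of changes at low values, with LINC02432 at -3.57 and LINC00173 at -2.61. The direction of all transcripts under the scalings without a filter was an alternative chosen after seeing the data. The unknown depth limits what the 19 transcripts below the filter can show.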

Other observations

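Outside the symbol rule, GENCODE 29 types 39 further genes of the table as noncoding, 27 of them without a symbol. By the mean z-score 26 were higher and 13 lower in shSTYK1 cells, and in all 39 the groups stood apart, beside 93.7% of all 995 genes.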
